A study of Mus musculus with 12 samples.

Results

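Musashi RNA-binding proteins carry a pair of RNA recognition motifs with which they bind short motifs in the 3′ ends of messenger RNAs and change how well those RNAs are translated or how long they last. Msi1 is best known from neural stem and progenitor cells. Msi2 is the member used by blood stem and progenitor cells, and it is known as a regulator of aggressive myeloid leukaemia. The RNA of these genes was followed here with every probe set that the probe-to-gene table pairs with Msi1 or Msi2. The genes are 2 of 18193 that the table names alone on a probe set, and they have 11 of the 45037 probe sets on the array, 8 for Msi2 and 3 for Msi1.

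The arrays measured RNA of leukaemic stem cells in 4 groups of 3. Acute myelogenous leukaemia (AML), Msi2 mutant or wild-type, came from cells given the MLL-AF9 fusion and was sorted as Lin-Sca1-ckit+. Blast crisis chronic myelogenous leukaemia, abbreviated bcCML, again Msi2 mutant or wild-type, came from cells given both BCR-ABL and NUP98-HOXA9 and was sorted as Lin-. In all groups, KLS stem and progenitor cells were infected with the oncogenes and transplanted, and the mutant donors were Msi2 Gt/Gt, homozygous for the gene trap of strain B6;CB-Msi2Gt(pU-21T)2Imeg, the strain that the labels give for every sample, wild-type ones included. A gene trap interrupts a transcript after the exons that lie before it. Where the probes of each probe set lie relative to the trap, and how many cells of the transplanted hosts entered the sorts, are not given in the sources used here. The titles call the samples biological replicates without naming animals, so p values measure the spread between these samples.

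Values are intensity units on a linear scale after the authors' GCRMA background correction and normalization. They run down to a floor of 4.49 on every array, and a probe set was tested where it exceeded 16 units, the filter level, on at least 3 of the 12 arrays. Median intensities lay between 13.1 and 13.8, and between 48.4% and 48.8% of probe sets were above 16 units on each array. Kit, a marker of the AML sort, averaged 307 ± 111 units in mutant and 232 ± 87.3 in wild-type AML. Ly6a, the Sca1 gene, had no probe set that names it alone. Ptprc, the pan-haematopoietic CD45 gene, was above 16 units in all 4 groups. Genes of T cells and NK cells lay below 16 units in every group. The 3 neutrophil genes on the array summed to between 26302 and 47902 units in mutant AML, against 16359 to 21906 in wild-type AML, and the 4 endothelial and stromal genes to between 149 and 265 units, against 297 to 385. In the endothelial and stromal list Pecam1 averaged 103 ± 59.4 units in mutant and 269 ± 27.8 in wild-type AML, Col1a1 99.6 ± 100.1 and 33.6 ± 31.6 units (SD, n = 3), and Cdh5 was at the floor. The neutrophil sum was set mainly by Camp, and Mmp8, also on that list, fell to 16.3 ± 7.05 units in mutant AML, against 172 ± 102 in wild-type AML (SD, n = 3; limma adjusted p = 0.00553). The 4 monocyte genes summed to 2009, 12730 and 8379 units on AML mutant arrays 1, 2 and 3, against 4983 to 5818 in wild-type AML. In bcCML these sums overlapped between the genotypes, at 43.2 to 151 units in mutant and 37.5 to 112 in wild-type cells for the neutrophil genes. The part of these differences in the results below was not tested.

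The Msi2 gene lies on chromosome 11. Its start region is printed here because the level of Msi2 was the widest difference between the leukaemias among the members. The window runs from 250 bases before to 50 bases after a RefSeq start, is 1 of 3 overlapping windows listed for the gene, and covers chr11:88718228-88718527 on the minus strand of GRCm38.p6. Capitals mark matches to the E-box CACGTG, the cyclic AMP response element TGACGTCA and the CCAAT box, searched on both strands.
Msi2: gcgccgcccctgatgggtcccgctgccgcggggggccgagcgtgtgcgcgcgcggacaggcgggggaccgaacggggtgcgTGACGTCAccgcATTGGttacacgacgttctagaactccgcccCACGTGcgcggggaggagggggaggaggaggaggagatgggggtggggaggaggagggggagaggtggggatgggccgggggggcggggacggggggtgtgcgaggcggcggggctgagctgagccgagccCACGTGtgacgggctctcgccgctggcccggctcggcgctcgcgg
Its bases were 76.3% G or C, against a median of 52.7% over the 32851 windows of the table. It held 39 CpG pairs, against a median of 7. CACGTG occurred at 2 places in it and in 7.15% of all windows, TGACGTCA at 1 place and in 1.79%, and CCAAT at 1 place and in 37.4%. The Meis-type motif TGACAG and the Hoxa9-type motif TTTACGAC were not among these letters (19.2% and 0.247% of all windows).

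Msi2 RNA was readable on 5 of its 8 probe sets. The other 3, 1421231_at, 1443008_at and 1458136_at, stayed between 4.49 and 4.71 units on all 12 arrays, below the filter level, and carry no information on either genotype. One of these, 1421231_at, is listed with the same accession as the readable probe set 1421230_a_at, so a probe set at the floor does not show that the RNA was absent. On all 5 readable probe sets the groups fell in the same order by mean log2, from mutant AML at the bottom through wild-type AML and mutant bcCML to wild-type bcCML. Levels are set only within a probe set, since the brightness of different probe sets cannot be compared.

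**Figure D1:**
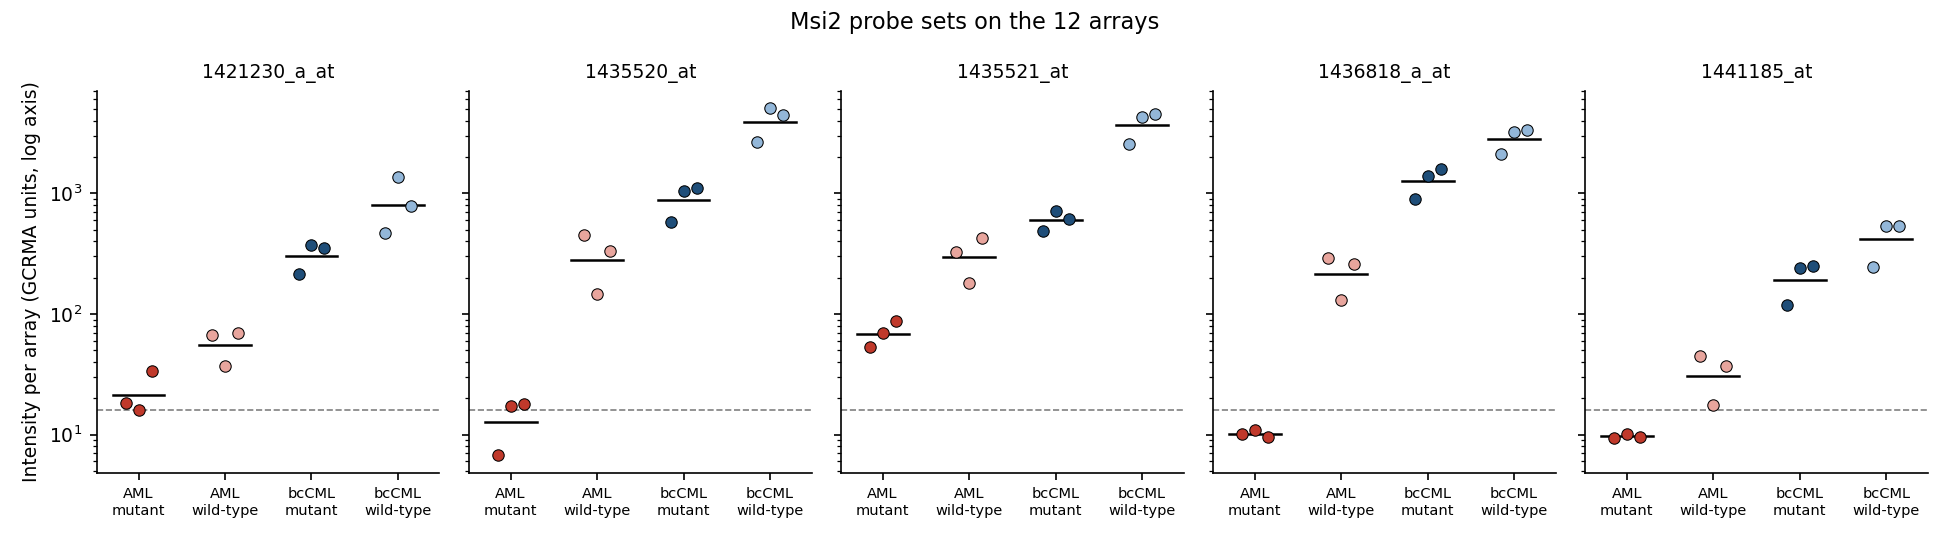
Intensity (GCRMA units, log axis) of the 5 readable Msi2 probe sets on each of the 12 arrays; points are arrays, lines are means on the log scale and the dashed line is the filter level of 16 units. In every panel mutant AML lies lowest and wild-type bcCML highest, and on 1436818_a_at and 1441185_at all mutant AML arrays lie below 16 units.

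In AML, Msi2 RNA was lower in mutant cells on all 5 readable probe sets. The genotypes did not overlap on any of them, which is a description, since overlap was not counted over all probe sets. Of the 5, 3 passed the test (limma, Benjamini-Hochberg adjusted p under 0.05 over all 23529 probe sets tested). Over all probe sets, 0.71% were called lower in this comparison. The median log2 difference of the 5 was -2.11, against -0.01 over all probe sets tested. Less RNA per cell and fewer cells with the RNA cannot be told apart in such bulk samples.

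Probe set 1436818_a_at measured 10.2, 10.9 and 9.53 units in mutant AML, against 291, 131 and 259 units in wild-type AML. All mutant arrays were below the filter level, so the RNA it reads was at least 13.4-fold lower in mutant cells (limma adjusted p = 0.00140). Against the mean log2 of the wild-type arrays, at most 7.46% of the level remained on this probe set. Both bounds leave out the spread of the wild-type arrays.

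Probe set 1435520_at measured 6.73, 17.3 and 17.8 units in mutant AML, against 449, 147 and 332 units in wild-type AML. The mutant mean of log2 lay below the filter level, with arrays 2 and 3 just above it. The fitted log2 difference was -4.46 ± 0.50 (SE; limma adjusted p = 0.00553). The fitted share of 4.56% of the wild-type level (95% interval 2.12% to 9.81%) rests on 2 of 3 mutant arrays above the filter level and is not fully measured.

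Probe set 1435521_at, which shares its accession with 1435520_at, kept a higher share. It measured 52.9, 69.1 and 86.9 units in mutant AML, all above the filter level, against 325, 181 and 430 units in wild-type AML. Its log2 difference was -2.11 ± 0.34 (SE; limma adjusted p = 0.0224), which leaves 23.2% of the wild-type level (95% interval 13.7% to 39.3%). This call ended without AML mutant array 2 (adjusted p = 0.0536) or AML wild-type array 1 (0.0977), and with no filter (0.0643), whereas those of 1435520_at and 1436818_a_at held on leaving out any one of the 12 arrays.

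The remaining readable probe sets were dimmer and did not pass. For 1421230_a_at the values were 18.15, 15.9 and 34.0 units in mutant AML, against 66.6, 37.1 and 69.5 units in wild-type AML. The 34.0 units of mutant array 3 came close to the 37.1 units of wild-type array 2, and the log2 difference was -1.38 ± 0.44 (SE; limma adjusted p = 0.208). For 1441185_at they were 9.33, 10.2 and 9.59 units in mutant AML, all below the filter level, against 44.8, 17.5 and 37.3 units in wild-type AML (at least 1.93-fold lower; limma adjusted p = 0.113).

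In bcCML, Msi2 RNA was also lower in mutant cells on all 5 readable probe sets, and 1 of the 5 passed the test, where 0.034% of all probe sets were called lower. The median log2 difference of the 5 was -1.38, against -0.03 over all probe sets tested. The genotypes did not overlap on 4 of the 5, again without a count over all probe sets.

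The probe set that passed was 1435521_at. It measured 487, 721 and 608 units in mutant bcCML, against 2583, 4319 and 4579 units in wild-type bcCML. Every mutant array was far below every wild-type array, and the log2 difference was -2.63 ± 0.34 (SE; limma adjusted p = 0.0306), which leaves 16.1% of the wild-type level (95% interval 9.52% to 27.2%). This call was lost in 8 of 12 fits with an array removed, namely mutant array 2 or 3 or wild-type array 1 of AML, or mutant array 1 or 3 or any wild-type array of bcCML (adjusted p between 0.0566 and 0.102), with log2 differences between -2.90 and -2.48 over the 12 fits.

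For 1435520_at the values were 580.3, 1041 and 1111 units in mutant bcCML, against 2655, 5110 and 4489 units in wild-type bcCML. Here 22.3% of the wild-type level remained (95% interval 10.3% to 47.9%), and the log2 difference of -2.17 ± 0.50 did not pass over all probe sets (SE; limma adjusted p = 0.251). Probe set 1436818_a_at, below the filter level in mutant AML, read 891, 1403 and 1584 units in mutant bcCML, against 2123, 3209 and 3342 units in wild-type bcCML. That is 44.3% of the wild-type level (95% interval 26.9% to 72.8%; log2 -1.17 ± 0.32, limma adjusted p = 0.376).

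The dimmer probe sets showed the same order of the genotypes. For 1421230_a_at the values were 215, 374 and 351 units in mutant bcCML, against 467, 1374 and 782 units in wild-type bcCML (38.3% of the wild-type level; limma adjusted p = 0.455). For 1441185_at they were 119, 241 and 248 units in mutant bcCML, against 247, 538 and 541 units in wild-type bcCML (46.3%; limma adjusted p = 0.555). On this last probe set mutant array 3, at 248 units, and wild-type array 1, at 247 units, overlapped. Between arrays of the same number, the mutant array was the lower one in 3 of 3 cases.

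**Figure D2:**
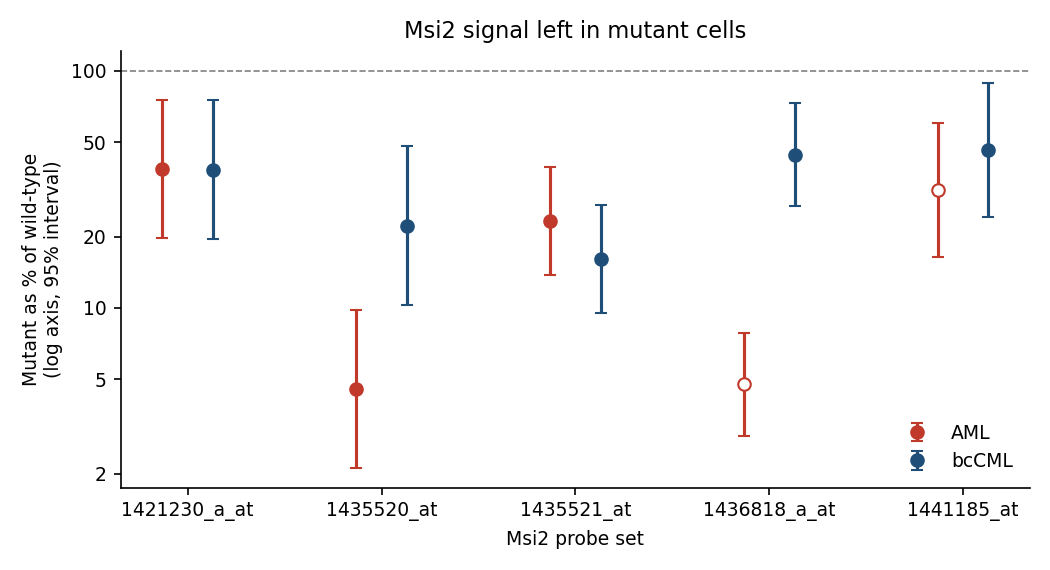
Msi2 intensity in mutant cells as a percent of wild-type (log axis) for the 5 readable probe sets in AML and bcCML; points are limma estimates, bars are 95% intervals, and open points mark probe sets with all mutant arrays below the filter level, where the percent is not fully measured. In AML the estimates run from 4.56% to 38.5% and in bcCML from 16.1% to 46.3%, and 1436818_a_at has the widest gap between the leukaemias.

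Averaged over both leukaemias, all 5 readable probe sets were lower in mutant cells, and 3 passed, where 0.247% of all probe sets were called lower. These were 1436818_a_at at -2.78 ± 0.23 on the log2 scale, 1435521_at at -2.37 ± 0.24 and 1435520_at at -3.31 ± 0.35 (SE; limma adjusted p = 0.00411, 0.00595 and 0.00622). In mutant AML, 1436818_a_at and 1441185_at were below 16 units on all 3 arrays and 1435520_at on 1, so their averages are fitted values and not fully measured. The other 2, 1441185_at and 1421230_a_at, had log2 differences of -1.39 ± 0.30 and -1.38 ± 0.31 and did not pass (limma adjusted p = 0.0881 and 0.1004).

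The lowest array of a group was shared across probe sets in all groups but mutant AML. Mutant array 1 and wild-type array 1 of bcCML, and wild-type array 2 of AML, were each the lowest of their group on 5 of 5 readable Msi2 probe sets. In mutant AML, arrays 1, 2 and 3 were the lowest on 3, 1 and 1 of the 5. The highest array differed between probe sets in every group. Across the 12 arrays, after each leukaemia's mean was subtracted, the log2 values of 1435520_at and 1436818_a_at correlated at r = 0.965, and those of 1421230_a_at and 1436818_a_at, the least alike pair of Msi2 probe sets, at r = 0.773. These points share the arrays and the genotype difference, so the correlations describe the probe sets and are not tests.

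Whether the leukaemias differed in the mutant effect was tested as the bcCML effect minus the AML effect. With limma 0 of 5 readable Msi2 probe sets passed, where 0.0085% of all probe sets were called in either direction. An unadjusted p under 0.05 was found for 2 of the 5 and for 1989 of all 23529 probe sets. The value for 1436818_a_at, 3.22 ± 0.46 on the log2 scale, came nearest (SE; limma adjusted p = 0.0645), and it passed without AML wild-type array 2 (0.0112). Its AML part is measured only as a bound, since all mutant AML arrays lay below 16 units, so 3.22 is a fitted value and not a measured size. That for 1435520_at was 2.29 ± 0.71 (adjusted p = 0.422), and that for 1435521_at was -0.53 ± 0.48 (adjusted p = 0.778).

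Within each array, relative to 1435521_at, 2 probe sets had differences of opposite sign in the leukaemias. The ratio of 1436818_a_at to 1435521_at was 0.193, 0.158 and 0.110 in mutant AML, against 0.896, 0.721 and 0.603 in wild-type AML. In bcCML it was 1.83, 1.95 and 2.60 in mutant cells, against 0.822, 0.743 and 0.730 in wild-type cells. Wild-type cells of the leukaemias thus had overlapping ratios, while every mutant AML array was below and every mutant bcCML array above all wild-type arrays.

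The ratio of 1435520_at to 1435521_at was 0.127, 0.250 and 0.205 in mutant AML, against 1.38, 0.808 and 0.771 in wild-type AML. In mutant bcCML it was 1.19, 1.45 and 1.83, against 1.03, 1.18 and 0.980 in wild-type bcCML, where the lowest mutant and the highest wild-type array were close. The mutant minus wild-type difference of this log2 ratio was -2.35 in AML and 0.47 in bcCML, and for 1436818_a_at it was -2.29 and 1.46. The AML values are fitted against numerators below 16 units on all 3 mutant arrays of 1436818_a_at and on 1 of 3 of 1435520_at, so their sizes are not fully measured. Exact permutation tests of 3 against 3 arrays gave p = 0.1 for each of these 4 differences (two-sided, the smallest p this design allows; the 4 ratios computed in each leukaemia share their denominator), so none can pass.

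The ratios of 1421230_a_at and 1441185_at to 1435521_at had positive differences in each leukaemia, 0.73 and 0.44 on the log2 scale in AML and 1.25 and 1.52 in bcCML. The genotypes overlapped for 1441185_at in AML and not in the other 3 cases. These ratios were chosen after the values were seen, describe probe sets of 1 gene and do not say which transcript or exon changed. The part of the floor of the values in them was not tested.

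**Figure D3:**
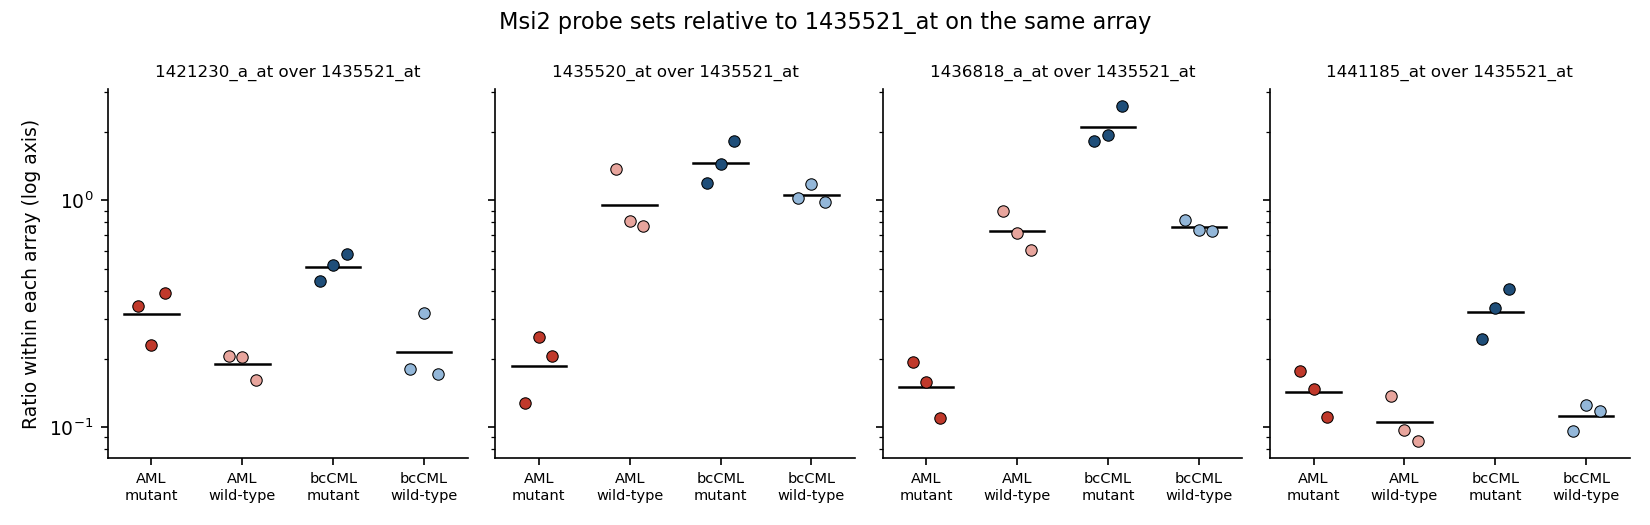
Ratio of 4 Msi2 probe sets to 1435521_at within each array (log axis); points are arrays and lines are means on the log scale. For 1436818_a_at the mutant AML arrays lie between 0.110 and 0.193, the mutant bcCML arrays between 1.83 and 2.60 and all wild-type arrays between 0.603 and 0.896.

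Between wild-type leukaemias, Msi2 RNA was higher in bcCML than in AML on all 5 readable probe sets, and all 5 passed the test, where 15.1% of all probe sets were called higher. The sizes were alike, between 12.6-fold on 1435521_at (log2 3.66 ± 0.34 SE; limma adjusted p = 2.25e-05) and 14.3-fold on 1421230_a_at (3.84 ± 0.44; 9.10e-05). The sorts differed between the leukaemias, so oncogene and sorted population cannot be told apart here. Marker genes of other cell types moved with this difference. The summed megakaryocyte genes Pf4, Itga2b and Gp1bb measured between 3705 and 8176 units in wild-type bcCML and between 16.2 and 29.3 in wild-type AML. The monocyte genes summed to between 189 and 479 units in wild-type bcCML, against 4983 to 5818 in wild-type AML, and the neutrophil genes to between 37.5 and 112 units, against 16359 to 21906. The part of these markers in the result was not tested.

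Between mutant leukaemias the 5 probe sets were likewise all higher in bcCML and all passed, where 19.3% of all probe sets were called higher, but the sizes were far apart. Probe set 1435521_at was 8.76-fold higher (log2 3.13 ± 0.34 SE; limma adjusted p = 5.18e-05), and 1436818_a_at was at least 78.5-fold higher (limma adjusted p = 9.33e-08).

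Mutant bcCML cells had more Msi2 signal than wild-type AML cells. All 5 readable probe sets passed this comparison as well, where 14.4% of all probe sets were called higher. The smallest difference was on 1435521_at, 605 ± 117 units in mutant bcCML and 312 ± 125 units in wild-type AML (SD, n = 3; log2 1.02 ± 0.34 SE, limma adjusted p = 0.0417), and the largest on 1441185_at, 203 ± 72.3 and 33.2 ± 14.1 units (SD, n = 3; log2 2.64 ± 0.42 SE, limma adjusted p = 0.000823). Without AML wild-type array 2, bcCML mutant array 2 or bcCML mutant array 3 the calls of 1435521_at and 1435520_at ended, which left 3 of 5, and 1435521_at lost its call in 8 of the 12 cases, with a highest adjusted p of 0.138.

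Msi1, the close relative that could stand in for Msi2, was dim. Probe set 1421409_at, the one listed with a RefSeq transcript of Msi1, stayed between 4.50 and 4.52 units on all 12 arrays. The other 2 lay around the filter level, each above 16 units on 9 of 12 arrays, and 0 of 2 passed the test in either leukaemia with limma. In AML both had an unadjusted p under 0.05 and in bcCML neither did, where 2972 and 1920 of all 23529 probe sets had one. After adjustment 0.969% and 0.0595% of all probe sets were called in either direction.

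In mutant AML the estimates of Msi1 were upward. Probe set 1452287_at measured 168, 66.6 and 57.5 units in mutant AML, against 29.8, 13.2 and 38.3 units in wild-type AML. The genotypes did not overlap, and the highest value came from mutant array 1, the array with the lowest sum of monocyte genes and the highest sum of neutrophil genes. The log2 difference was 1.80 ± 0.55 (SE; limma adjusted p = 0.189), 3.49-fold with a 95% interval from 150.1% to 813% of the wild-type level. Without mutant array 1 it was 1.32 ± 0.54 (limma adjusted p = 0.307).

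Probe set 1444306_at measured 27.05, 26.8 and 20.8 units in mutant AML, against 8.64, 15.2 and 20.8 units in wild-type AML. Mutant array 3 and wild-type array 3 had the same value, and the log2 difference was 0.82 ± 0.31 (SE; limma adjusted p = 0.298). An upward difference of Msi1 in mutant AML was therefore seen on both measured probe sets, did not pass over all probe sets, and rests on values of at most 168 units.

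In bcCML the measured Msi1 probe sets overlapped between the genotypes. Probe set 1452287_at measured 29.7, 11.9 and 17.0 units in mutant bcCML, against 28.4, 15 and 38.3 units in wild-type bcCML, a log2 difference of -0.48 ± 0.55 (SE; limma adjusted p = 0.882; 95% interval -1.70 to 0.74). For 1444306_at the values were 20.9, 20.5 and 18.7 units in mutant bcCML, against 20.6, 11.2 and 16.03 units in wild-type bcCML, a log2 difference of 0.37 ± 0.31 (limma adjusted p = 0.823; 95% interval -0.32 to 1.06). Between the leukaemias the effects on this gene differed by -2.29 ± 0.78 on 1452287_at, which did not pass (SE; limma adjusted p = 0.463).

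Wild-type bcCML and wild-type AML did not differ detectably in Msi1, with log2 differences of 0.04 ± 0.55 for 1452287_at and 0.15 ± 0.31 for 1444306_at (SE; limma adjusted p = 0.968 and 0.756; 32% of all probe sets were called in either direction). Between mutant leukaemias 1452287_at was lower in bcCML, with a log2 difference of -2.25 ± 0.55 (SE; limma adjusted p = 0.00809), where 21.7% of all probe sets were called lower, and 1444306_at did not pass.

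**Figure D4:**
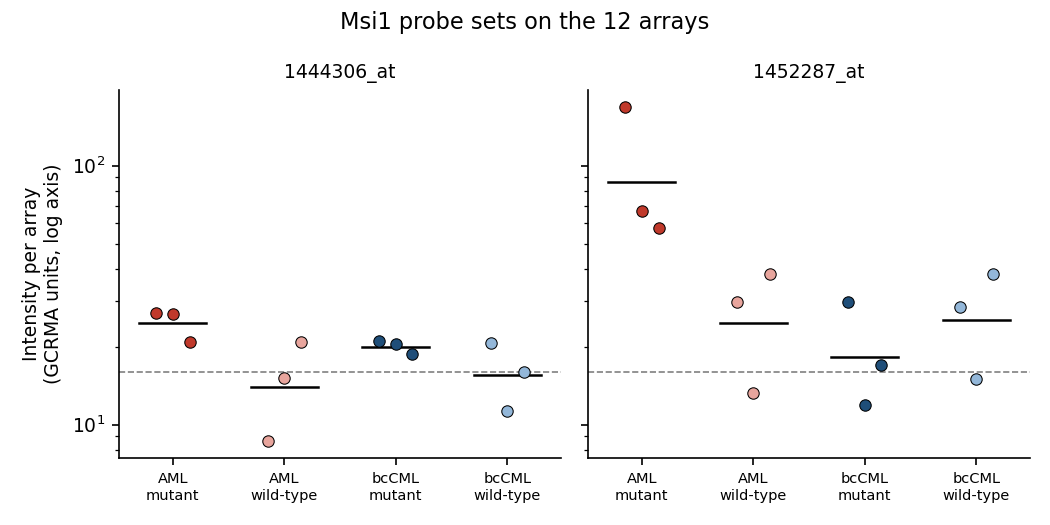
Intensity (GCRMA units, log axis) of the 2 measured Msi1 probe sets on each of the 12 arrays; points are arrays, lines are means on the log scale and the dashed line is the filter level of 16 units. On 1452287_at the mutant AML arrays, between 57.5 and 168 units, lie above all other arrays, and on 1444306_at the groups overlap.

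Messenger RNAs described as bound or regulated by Musashi proteins were taken as a list of 14 genes, of which 12 were tested, each on its brightest probe set. With limma 0 of 12 were called in either leukaemia, with 3 at an unadjusted p under 0.05 in AML and 1 in bcCML. Of all 23529 probe sets, 0.969% were called in AML and 0.0595% in bcCML, and 2972 and 1920 had an unadjusted p under 0.05, so a count of 0 in 12 is near the background. In AML 6 estimates were positive and 6 negative, and the median log2 difference was 0.02, against -0.05 over 10817 genes. In bcCML 3 were positive and 9 negative, with a median of -0.17 against -0.02.

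The largest differences of the list in AML were those of Tspan3, a tetraspanin membrane protein named in the title of the series, and of Jag1, a ligand of Notch receptors. Tspan3 measured 19.3 ± 11.7 units in mutant and 80.5 ± 26.0 in wild-type AML (SD, n = 3), a log2 difference of -2.26 ± 0.46 that lay at the threshold (SE; limma adjusted p = 0.0530). Fitted with 1 probe set per gene it was called (adjusted p = 0.0445). It was also called with log2 of intensity plus 16 (0.0330) and without AML mutant array 1 (0.0357) or 3 (0.0276). It was not called with the replicate block (0.110), with no filter (0.130) or in the other 10 cases of leaving out 1 array, where the highest adjusted p was 0.164. Jag1 measured 410 ± 146 units in mutant and 106 ± 8.65 in wild-type AML (SD, n = 3), a log2 difference of 1.89 ± 0.49 (SE; limma adjusted p = 0.123), with no overlap between the genotypes. It was called without bcCML mutant array 1 (0.0478).

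Smad3, which carries TGF-beta signals to the nucleus, measured 1218 ± 588 units in mutant and 602 ± 51.6 in wild-type AML (SD, n = 3; limma adjusted p = 0.283), and Ikzf2, the Helios transcription factor, 3381 ± 1264 and 4835 ± 716 units (SD, n = 3; limma adjusted p = 0.400). In bcCML the smallest p belonged to Bcat1, the cytosolic branched-chain aminotransferase, at 426 ± 342 units in mutant and 1384 ± 1053 in wild-type cells (SD, n = 3; limma adjusted p = 0.531). Tgfbr1, Meis1 and Myc followed, with log2 differences of -0.37 ± 0.20, 0.33 ± 0.19 and -0.63 ± 0.46 (SE; limma adjusted p = 0.690, 0.698 and 0.782). Numb, the Notch inhibitor that is the classic Musashi target, had log2 differences of -0.00 ± 0.27 in AML and -0.14 ± 0.27 in bcCML. These arrays measure RNA levels, and a change in translation would not appear in them.

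Genes of protein partners and of relatives with similar RNA recognition motifs gave no call. With limma 0 of 3 tested partners and 0 of 8 tested relatives were called in either leukaemia, and none of them had an unadjusted p under 0.05. At 0.969% and 0.0595% of all probe sets called, these counts say nothing particular about the lists. Syncrip, an RNA-binding partner of Msi2, measured 4349 ± 184 units in mutant and 4792 ± 390 in wild-type AML, and 4526 ± 638 and 4905 ± 269 units in bcCML (SD, n = 3). The poly(A)-binding protein gene Pabpc1 had log2 differences of -0.07 ± 0.12 in AML and -0.03 ± 0.12 in bcCML, and Lin28a, an inhibitor of let-7 microRNA processing, of -0.44 ± 0.30 and -0.39 ± 0.30 (SE). Among the relatives, all 8 had negative estimates in AML, with a median of -0.10 against -0.05 over all genes. The lowest p there belonged to Tardbp (-0.55 ± 0.31), Hnrnpab (-0.24 ± 0.19), Hnrnpd (-0.12 ± 0.14) and Hnrnpa1 (-0.16 ± 0.18), and in bcCML to Hnrnpab (-0.25 ± 0.19), Tardbp (0.35 ± 0.31), Hnrnpdl (0.20 ± 0.18) and Hnrnpa0 (-0.11 ± 0.13), as log2 differences with SE.

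**Figure D5:**
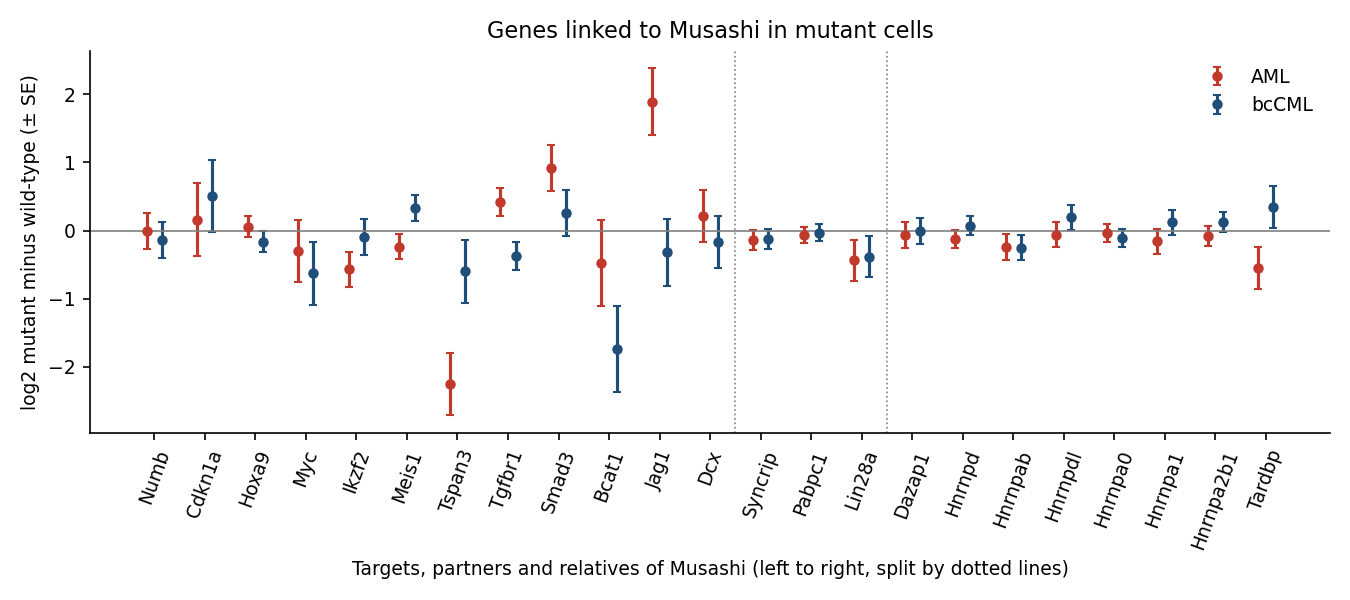
Mutant minus wild-type log2 difference (limma estimate ± SE) of tested Musashi target, partner and relative genes in AML and bcCML, each on its brightest probe set. Tspan3 (-2.26) and Jag1 (1.89) in AML and Bcat1 (-1.74) in bcCML lie farthest from 0, and no gene shown was called.

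Of 10815 genes, those whose brightest probe set followed the Msi2 probe set 1435521_at most closely over the 12 arrays were Eif1a (r = 0.981), a translation initiation factor gene, Hint1 (0.972), a histidine triad hydrolase gene, Cct8 (0.969), a chaperonin subunit gene, Opa1 (0.967), a gene of mitochondrial fusion, and Trmt6 (0.957), a transfer RNA methyltransferase subunit gene. Their differences were far smaller than those of Msi2: Eif1a had log2 differences of -0.60 ± 0.14 in AML and -0.49 ± 0.14 in bcCML (SE; limma adjusted p = 0.0879 and 0.394). With each leukaemia's mean subtracted, the closest were Hs3st3b1 (r = 0.966), a heparan sulfate sulfotransferase gene, Dgke (0.958), a diacylglycerol kinase gene, and again Hint1 (0.954), Eif1a (0.947) and Cct8 (0.942). Hs3st3b1 measured 20.8 ± 7.43 units in mutant and 113 ± 65.4 in wild-type AML, and 11.2 ± 2.40 and 135 ± 81.3 units in bcCML (SD, n = 3). It was not called in either leukaemia (limma adjusted p = 0.171 and 0.168). In the shared effect Hs3st3b1 (log2 -2.80 ± 0.47) and Dgke (-1.08 ± 0.17) were called lower (SE; limma adjusted p = 0.0461 and 0.0370), where 0.247% of all probe sets were. All mutant bcCML arrays of Hs3st3b1 lay below 16 units, so its size is not fully measured. Both genes were picked for likeness to Msi2, so these calls are descriptions too. These correlations were chosen as the highest of many, share the arrays and the genotype difference, and are descriptions.

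The genes flanking Msi2, 3 tested ones to each side by the order of genes in the RefSeq table, did not move together. Mrps23, a mitochondrial ribosomal protein gene next to Msi2, fell to 649 units in mutant AML, against 1129 units in wild-type AML (log2 -0.81 ± 0.14 SE; limma adjusted p = 0.0290), and measured 776 units in mutant and 1201 in wild-type bcCML (adjusted p = 0.226). Its AML call ended without any one of 7 of the 12 arrays, with a highest adjusted p of 0.116 without AML wild-type array 1. Scpep1, a serine carboxypeptidase gene, fell to 69.9 units in mutant AML, against 388 in wild-type AML (log2 -2.93 ± 0.57 SE; limma adjusted p = 0.0464), and measured 68.0 units in mutant and 61.0 in wild-type bcCML. This call ended in 10 of the 12 cases, with a highest adjusted p of 0.132. Cuedc1 rose in bcCML, to a mean of 252 units in mutant cells, against 11.4 units in wild-type cells (limma adjusted p = 0.0425). Its call ended in 10 of the 12 cases, with a highest adjusted p of 0.147 without bcCML mutant array 3. All wild-type arrays of both leukaemias lay below 16 units on Cuedc1, so its fitted differences are not fully measured. Akap1, Vezf1 and 4930556N13Rik were not called in either leukaemia. In AML the log2 differences were -1.24 ± 0.33 for Akap1, 0.32 ± 0.19 for Vezf1, 0.03 ± 0.18 for 4930556N13Rik and 0.98 ± 0.60 for Cuedc1 (SE). The genotypes did not overlap there on Akap1, Mrps23, Scpep1 and Cuedc1. Over all probe sets 0.969% were called in AML and 0.0595% in bcCML. In the shared effect, Mrps23 was called lower (log2 -0.72 ± 0.10 SE, limma adjusted p = 0.0215) and Cuedc1 higher (2.63 ± 0.42, 0.0379). The other flanking genes were not called there, where 77 of all 23529 probe sets were. These shared calls were not followed under the other settings.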

How the data were processed

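RNA of 12 samples was hybridized to Affymetrix mouse arrays. The authors deposited 1 value per probe set and array, an intensity after GCRMA, which the submitters' processing notes name without a version. The values are linear and log2 was taken here. Gene symbols came from the platform annotation, in which 34945 probe sets name 1 gene, 932 several and 9160 none, and a probe set was assigned to Msi1 or Msi2 only by that symbol. Probe positions and scanner files were not used here, and the number of arrays limits the precision.

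Probe sets above 16 units on at least 3 arrays (23529) entered a linear model in limma 3.58.1 (R 4.3.3) of 1 mean per group over all 12 arrays, 8 residual degrees of freedom, two-sided tests and Benjamini-Hochberg adjustment over all probe sets tested in each of 7 comparisons. Comparisons that share a group are not independent. For genes other than Msi1 and Msi2, differences are fitted values. For a Musashi probe set with all 3 arrays of a group at or below 16 units, a fold is given as a bound. It was taken from the mean log2 of the brighter group against 16 units. Such a bound leaves out the spread of the brighter group. All probe sets of the Musashi genes are named. Of each linked list, counts and up to 4 members with the smallest p in each mutant comparison are given on the brightest probe set, with the 5 genes most like 1435521_at and the 3 tested genes nearest Msi2 on each side. Numb and the marker genes were named beyond this rule, after their values were seen. The members and lists were chosen with earlier results of these data known.

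On simulated data with 200 changed probe sets of 23529, differences of 1, 2 and 4 on the log2 scale were recovered in 19.5%, 80% and 97.5% of cases for the AML comparison and in 28%, 81% and 94% for bcCML. False calls made up 7.14%, 5.88% and 7.14% of the calls for AML and 1.75%, 6.9% and 6.47% for bcCML, at a threshold of 0.05. Same-numbered mutant and wild-type arrays deviated together in bcCML (r = 0.36, 0.37 and 0.22) and not in AML (-0.05, -0.12 and -0.02). This pairing in bcCML comes from the data and not from the labels. All values in the results come from the fit without pairs, and the fit with the replicate number as a block is an alternative. Alternatives were no filter, a filter of log2 above 5, log2 of intensity plus 16, quantile normalization, 1 probe set per gene, a replicate block, the 6 arrays of 1 leukaemia and leaving out each array.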

Additional observations from a re-analysis of the deposited data

Results flagged for a closer look

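The mutant minus wild-type difference in the log2 ratio of 1436818_a_at to 1435521_at was 3.75 higher in bcCML than in AML, with every mutant array above every wild-type array in bcCML and below every one in AML. For the ratio of 1435520_at to 1435521_at the gap was 2.81, with the same opposite order in the leukaemias. Neither gap between the leukaemias was tested. All mutant AML arrays of 1436818_a_at, and 1 of 3 of 1435520_at, lay below 16 units, and the part of this in the gaps was not tested.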

How the results depend on the processing

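The lower Msi2 signal in mutant cells kept its direction on all 5 readable probe sets in each leukaemia when any 1 array was left out, but the number of calls depended on the setting. With 1 probe set per gene, which leaves 1 Msi2 probe set, that probe set was lower with a call in bcCML as well as AML. It was also called for the shared effect and for each of the 3 comparisons between leukaemias. With only the 6 arrays of 1 leukaemia, 0 were called in AML and 0 in bcCML, where limma called 0 of all 23529 probe sets and 2331 and 2206 had an unadjusted p under 0.05. With no filter 2 of the 5 were called in AML, where 139 of all 45037 probe sets were. With no filter or the stricter filter 0 were called in bcCML, where 16 of 45037 and 2 of 21333 probe sets were. With no filter 3 of the 5 were called between mutant bcCML and wild-type AML, where 6666 of 45037 probe sets were. Leaving out 1 array gave between 2 and 3 calls in AML, 0 and 1 in bcCML, and 3 and 4 for the shared effect. It gave between 0 and 1 for the difference between the leukaemias, and 3 and 5 between mutant bcCML and wild-type AML. Over all 23529 probe sets these fits gave between 63 and 333 calls in AML, 3 and 25 in bcCML, and 11 and 122 for the shared effect. They gave between 0 and 40 for the difference, and 5983 and 8406 between mutant bcCML and wild-type AML. With the replicate block, the Msi2 calls were 3 in AML, 1 in bcCML (1435521_at, limma adjusted p = 0.0410), 2 for the shared effect, where 1435520_at was lost (0.0570), and 0 for the difference. Over all probe sets the block gave 84 calls in AML, against 228 without it, 30 against 14 in bcCML, and 7 against 77 for the shared effect. The AML calls of Mrps23 and Scpep1 ended under the block (0.0989 and 0.0619). Near 0, the difference between the leukaemias on 1421230_a_at turned to 0.043 with quantile normalization and lay between -0.39 and 0.39 on leaving out 1 array (0.33, 0.29, 0.24 and 0.39 where it turned), and that on 1441185_at turned to -0.16 with log2 of intensity plus 16. The wild-type difference of Msi1 lay between -0.20 and 0.43 on 1444306_at (-0.20 and -0.06 where it turned) and between -0.41 and 0.42 on 1452287_at (-0.41, -0.04 and -0.26). The cause of these changes was not tested, except that fewer probe sets or arrays entered where stated. Signals near 16 units limit Msi1 and mutant AML.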

Other observations

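Between wild-type bcCML and wild-type AML, 5 of the 12 tested Musashi target genes were called with limma, 2 higher and 3 lower, where 32% of all probe sets were called in either direction. Tspan3 measured 274 ± 32.8 units in wild-type bcCML and 80.5 ± 26.0 in wild-type AML, and Bcat1 1384 ± 1053 and 11.9 ± 5.53 units, both higher in bcCML (SD, n = 3). Numb fell to 177 ± 37.8 units in wild-type bcCML, against 469 ± 103 in wild-type AML, and Ikzf2 and Meis1 were lower as well. The partner gene Lin28a measured 25.7 ± 1.19 units in wild-type bcCML and 764 ± 162 in wild-type AML (SD, n = 3).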
